A study of Mus musculus with 6 samples.

Results

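DEAD-box and DEAH-box RNA helicases were examined in mouse microglia that had been given conditioned medium. The genes were chosen by symbol: every row of the gene table whose symbol starts with Ddx or Dhx followed by a digit, leaving out Ddx58, Dhx58 and Ddx3y. The rule took 50 of 26096 genes, of which 49 are protein-coding. The other one, Dhx58os, is an antisense RNA annotated opposite Dhx58 and encodes no helicase. The study compared wild-type (WT) microglia in 2 groups of 3 libraries. The FeM CM group received culture medium from ferroptotic bone marrow-derived macrophages (BMDMs), cells dying by iron-dependent lipid peroxidation. The C CM group received medium from normal BMDMs. All libraries thus come from WT cells exposed to BMDM medium, and the labels give no age, sex, dose or exposure time and list no group without BMDM medium. Nothing in the labels says that the 3 libraries of a group came from separate cultures or animals, so the p-values measure the spread between these libraries, which may be technical.

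RNA helicases of these families use ATP to unwind short duplexes, strip proteins from RNA or clamp onto it. They are named for the letters of a conserved motif in the ATPase core, Asp-Glu-Ala-Asp or Asp-Glu-Ala-His. DEAD-box proteins pry open duplexes locally, whereas DEAH-box proteins translocate along a strand. Across both families, many helicases are switched on by partner proteins, such as G-patch or MIF4G proteins. Between them they serve nearly every step in the life of an RNA: transcription, splicing, export, translation, decay, the assembly of ribosomes and, in a few cases, the detection of viral RNA.

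Values are normalized counts, obtained by undoing the log2 transform of the deposited table. The libraries held 39624311 to 41953603 reads in genes with FeM CM and 43419446 to 50557794 with C CM. Correlations of log2 values were 0.98 to 0.985 within a group and 0.962 to 0.967 between groups, so that no library stood apart from its own group. Of the defining microglia markers, only 3 reads of P2ry12 and 21 of Tmem119 were counted in the 6 libraries together. By contrast, the macrophage-lineage receptor Csf1r averaged 58594 ± 778 normalized counts with FeM CM and 76237 ± 1842 with C CM (SD, n = 3 each). The labelled cell type therefore had its general myeloid genes but hardly any of its defining markers.

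Promoter sequences are shown for 4 helicase genes whose values carry the results: Ddx60, which changed most among the helicases, Dhx9, the most abundant of those that fell by 0.5 or more on the log2 scale, and the neighbouring pair Ddx21 and Ddx50, whose transcripts moved in opposite directions. Each is a 300-base window around the annotated start, read 5′ to 3′ on the gene's strand from RefSeq, build GRCm38.p6. Capitals mark only the motif chosen for each gene: GAAA, 2 further bases, GAAA in Ddx60, TTTGGCGC in Dhx9 and CCGGAAG in Ddx50. The Ddx21 window holds no match to CCGGAAG. The Dhx9 window also holds CCGGAAG, in lower case directly after its capitals. The Ddx60 window is at chr8:61927837-61928136 (+), the Dhx9 window at chr1:153487611-153487910 (-), the Ddx21 window at chr10:62602249-62602548 (-) and the Ddx50 window at chr10:62651169-62651468 (-). A second Ddx50 window, at chr10:62649704-62650003 (-), holds 0 matches to CCGGAAG and is not shown.
Ddx60: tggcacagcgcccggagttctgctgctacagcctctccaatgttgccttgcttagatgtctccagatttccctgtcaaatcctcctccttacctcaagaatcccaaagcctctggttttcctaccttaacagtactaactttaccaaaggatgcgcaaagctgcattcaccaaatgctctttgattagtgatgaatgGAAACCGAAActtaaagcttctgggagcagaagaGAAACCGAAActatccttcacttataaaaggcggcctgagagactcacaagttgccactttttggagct
Dhx9: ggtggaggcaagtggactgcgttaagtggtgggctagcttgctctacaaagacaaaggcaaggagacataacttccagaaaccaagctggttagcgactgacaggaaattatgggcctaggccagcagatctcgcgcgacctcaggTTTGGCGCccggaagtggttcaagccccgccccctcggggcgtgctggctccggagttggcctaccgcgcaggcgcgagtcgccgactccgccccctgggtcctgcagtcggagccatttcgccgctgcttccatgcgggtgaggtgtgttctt
Ddx21: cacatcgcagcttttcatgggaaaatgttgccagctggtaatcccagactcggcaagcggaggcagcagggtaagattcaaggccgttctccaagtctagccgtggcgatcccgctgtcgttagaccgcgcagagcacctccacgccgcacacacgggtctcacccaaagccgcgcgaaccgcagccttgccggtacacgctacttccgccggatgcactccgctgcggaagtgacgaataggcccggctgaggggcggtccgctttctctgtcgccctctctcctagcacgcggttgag
Ddx50: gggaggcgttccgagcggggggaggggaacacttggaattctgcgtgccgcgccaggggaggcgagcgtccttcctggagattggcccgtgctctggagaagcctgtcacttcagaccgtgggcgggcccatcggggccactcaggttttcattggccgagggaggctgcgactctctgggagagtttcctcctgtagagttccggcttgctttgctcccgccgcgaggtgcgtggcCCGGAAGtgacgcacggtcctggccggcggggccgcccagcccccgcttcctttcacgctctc

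Both strands of the promoters of 44 members with a RefSeq entry were searched for 5 motifs. The core of the interferon-stimulated response element, GAAA followed by any 2 bases and GAAA, occurred in 2 of 44 members (4.55%), Ddx49 and Ddx60, in 3.99% of 27025 genes and in 4.04% of the 9874 genes that were also tested for expression. Ddx60 was the one with 2 copies, the first starting at position -53 from the start. The ETS motif CCGGAAG occurred in 19 of 44 members (43.2%), in 9.93% of all genes and in 20.6% of the tested ones. It was found in 4 of 6 helicases called higher with FeM CM, in 7 of 20 called lower and in 8 of 17 not called. The E2F motif occurred as TTTGGCGC in Ddx46 and Dhx9 (4.55% of members, 0.585% of all genes and 1.13% of the tested ones) and as TTTCCCGC in Ddx41 (2.27% of members, 1.24% of all genes and 2.35% of the tested ones). The E-box CACGTG occurred in 6 of 44 members (13.6%), 8.09% of all genes and 11.8% of the tested ones. These matches describe letters in a window and say nothing about binding.

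Whether helicase transcripts differed between the media was tested with limma on the log2 values, over the 15597 genes that reached 10 normalized counts in 3 or more libraries, with Benjamini-Hochberg adjustment at a threshold of 0.05. Of the 50 members, 49 passed this filter. Among them 23 fell with FeM CM (46.9%), 6 rose (12.2%) and 20 did not pass the test. Over all genes tested, 22.8% were called lower and 19.7% higher, or 42.5% in either direction. The helicases are abundant genes, for which calls are more frequent: of the 6190 genes tested that lie between the 10th and 90th percentile of the members' levels, 33.4% were called lower and 24.4% higher. The share of helicases called in either direction, 59.2%, was close to the 57.8% of those genes, while its split leaned further to the lower side. The median log2 fold change of the 49 members was -0.19, or -0.14 without Dhx58os, against -0.01 for all genes tested and -0.03 for genes at the members' levels. Without FeM CM replicate 1 the median of the 49 members was -0.11. Most changes were modest. No helicase rose by 0.5 or more on the log2 scale, and 8 of the called ones fell by that much, whereas Dhx36 had the largest called rise, 0.33. In bulk RNA, fewer cells of a type and less RNA per cell cannot be told apart.

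**Figure D1:**
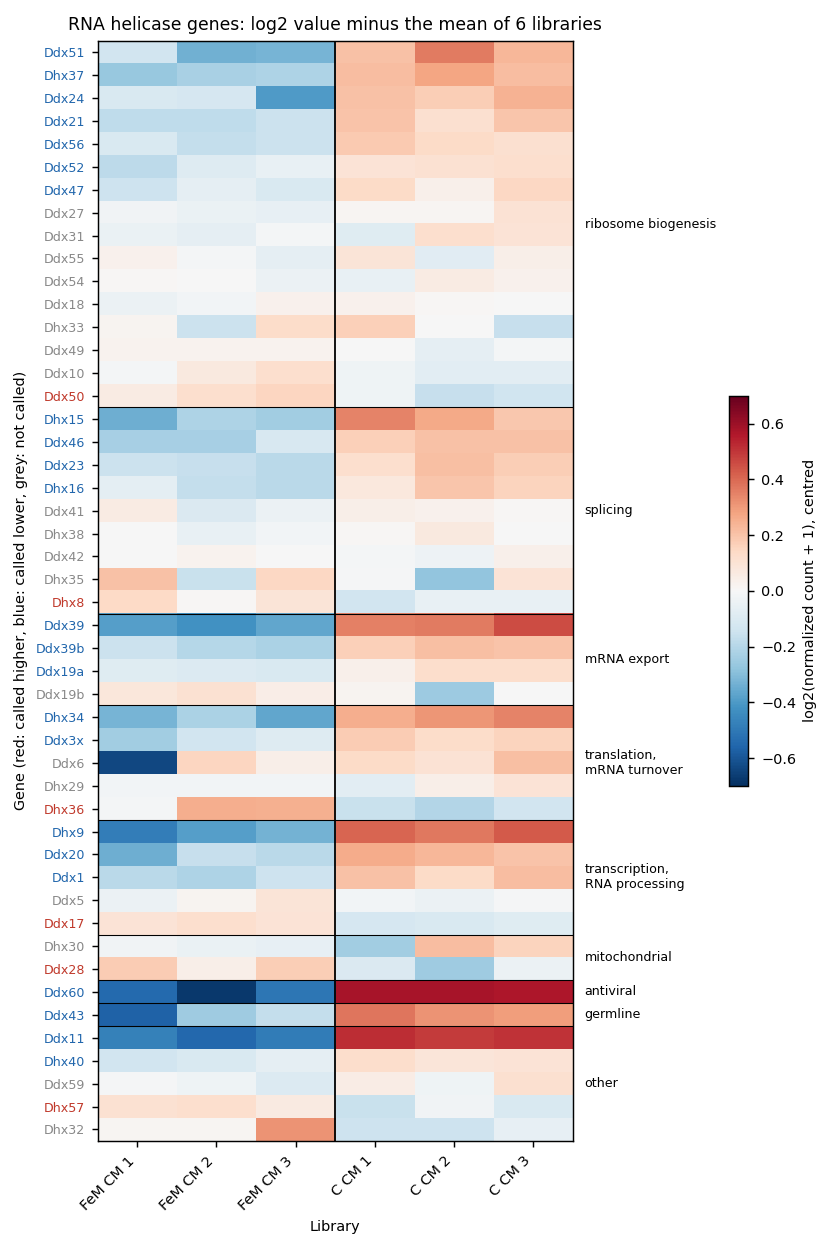
Log2(normalized count + 1) of 48 helicase genes in each of the 6 libraries (columns; FeM CM left of the line, C CM right of it), minus the gene's mean over the 6 libraries, grouped by role (rows; gene names in red were called higher, in blue lower, in grey not called). Ddx60 and Ddx11 show the strongest contrast between the groups, and the dark cell of Ddx6 belongs to 1 FeM CM library.

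Proliferation genes fell in the same libraries. All 20 of a list of cell-cycle genes were called lower with FeM CM, with a median log2 fold change of -1.48, and their summed level was 82816 to 85257 normalized counts with FeM CM and 214630.4 to 220752 with C CM. Mki67, a marker of cycling cells, averaged 10618 ± 351 normalized counts with FeM CM and 37543 ± 1328 with C CM (SD, n = 3 each; log2 fold change -1.82, SE 0.04, limma adjusted p 8.65e-09). The part of proliferation in the helicase values was not tested.

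Levels per kilobase of exon, taken with the exon lengths of GENCODE mouse release 21, show which helicases dominate in these cells. Ddx5, a coregulator of transcription and splicing, was the most abundant, at 5697 ± 244 normalized counts per kilobase with FeM CM and 5501 ± 44.1 with C CM (SD, n = 3 each). The nucleolar helicase Ddx21 followed, at 3558 ± 55.4 per kilobase with FeM CM and 4502 ± 161 with C CM. Next came the translation factor Ddx3x, at 3100.0 ± 163 per kilobase with FeM CM and 3847 ± 61.3 with C CM. The export helicase Ddx39b came next, at 2577 ± 69.0 per kilobase with FeM CM and 3364 ± 50.9 with C CM. These neighbours lay further apart than their spread in both groups. Lower down, neighbours could not always be ordered, as for Dhx36 and Dhx32 with FeM CM, at 387 ± 39.7 and 384 ± 47.9 per kilobase. The median member had 708 normalized counts per kilobase, against 213 for genes tested. At the low end stood Ddx60, at 80.5 ± 4.81 per kilobase with FeM CM and 178 ± 0.754 with C CM, and Ddx59, at 105 ± 3.33 with FeM CM and 112 ± 5.40 with C CM.

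**Figure D2:**
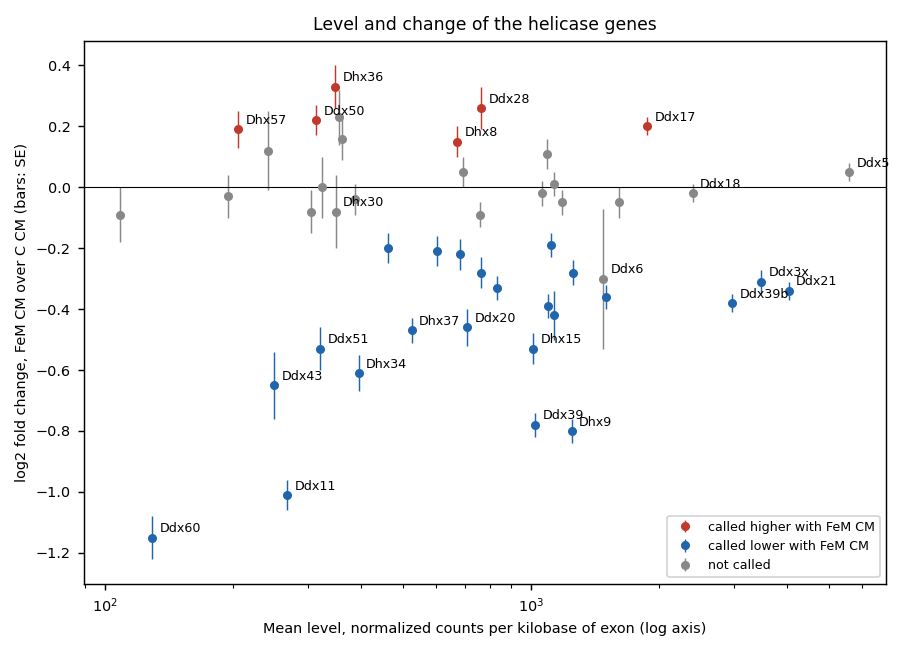
Log2 fold change of FeM CM over C CM (vertical axis; bars show the SE) against the mean level over the 6 libraries in normalized counts per kilobase of exon (horizontal log axis) for 48 helicase genes, coloured by call. Ddx60 and Ddx11, the helicases with the largest falls, lie at the low-level end, and among the most abundant genes Ddx5 sits near 0 while Ddx21, Ddx3x and Ddx39b lie between -0.3 and -0.4.

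Ribosome biogenesis was the largest role, with 16 helicases, of which 7 fell, 1 rose and 8 did not pass the test. Ddx21, which binds rRNA genes and pre-rRNA in the nucleolus, had 18260.1, 18250.0 and 18752 normalized counts with FeM CM, against 23885, 22354 and 23687 with C CM. All FeM CM values lay below all C CM values (log2 fold change -0.34, SE 0.03, limma adjusted p 5.38e-05). Its close relative Ddx50, also nucleolar, went the other way, with 3294, 3453 and 3505 normalized counts with FeM CM, against 3112, 2834 and 2867 with C CM. Here every FeM CM library was above every C CM library, and the gene rose by 0.22 on the log2 scale (SE 0.05, limma adjusted p 0.00813).

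Dhx37, which frees the U3 snoRNA from the early small-subunit particle, had 2167, 2217 and 2241 normalized counts with FeM CM and 3020.3, 3142 and 3025 with C CM. The groups were far apart relative to their spread (log2 fold change -0.47, SE 0.04, limma adjusted p 3.70e-05). Ddx51, which acts in maturation of the large-subunit rRNA, had 1500.4, 1306 and 1314 normalized counts with FeM CM and 1891, 2122 and 1940.3 with C CM, again without overlap (log2 fold change -0.53, SE 0.07, limma adjusted p 4.59e-04). Ddx24, a large-subunit factor by its yeast counterpart, averaged 8044 ± 896 normalized counts with FeM CM and 10686 ± 242 with C CM (SD, n = 3 each; log2 fold change -0.42, SE 0.08, limma adjusted p 0.00521). Smaller falls were called for Ddx56, at -0.28, and for the small-subunit factors Ddx52, at -0.22, and Ddx47, at -0.21. The 8 members of this role that did not pass, Ddx10, Ddx18, Ddx27, Ddx31, Ddx49, Ddx54, Ddx55 and Dhx33, had log2 fold changes between -0.09 and 0.11. Large-subunit and small-subunit helicases occurred both among those that fell and among those that did not pass.

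Ribosome assembly factors that are not helicases are set beside these values. Of 68 non-helicase factors tested, 46 were called lower (67.6%) and 4 higher (5.88%). Among genes at the members' levels these shares were 33.4% and 24.4%. The median log2 fold change of the factors was -0.23, against -0.08 for the 16 helicases. Ubtf, which opens rRNA genes for RNA polymerase I, averaged 3195 ± 52.5 normalized counts with FeM CM and 5758 ± 48.2 with C CM (SD, n = 3 each; log2 fold change -0.85, SE 0.04, limma adjusted p 3.52e-07). The nucleolar proteins Nolc1 and Ncl fell by 0.67 and 0.50 on the log2 scale, and the small-subunit factor Utp20 fell by 0.49. Nop14, a small-subunit factor, rose, averaging 5618 ± 60.5 normalized counts with FeM CM and 4292 ± 28.7 with C CM (SD, n = 3 each; log2 fold change 0.39, SE 0.03, limma adjusted p 2.65e-05). Riok1, Gtpbp4 and Las1l were also called higher, by 0.25, 0.18 and 0.16 on the log2 scale. Gtpbp4 and Las1l each lost the call in 4 of 15 alternative settings, with adjusted p between 0.00395 and 0.0708 for Gtpbp4 and between 0.00556 and 0.0916 for Las1l. Among the factors called lower, Nol10 lost its call in 10 settings, Pwp2 in 9, Nop58 and Tsr1 in 4, Rrp7a in 3 and Mdn1 in 2. The other lower factors kept their call in every setting. These fragile falls were named after their values were seen. The 4 higher calls became 2 without C CM replicate 2, FeM CM replicate 2 or FeM CM replicate 3, and 6 without FeM CM replicate 1.

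Among 9 splicing helicases, 4 fell, 1 rose and 4 did not pass. The 55.6% called in either direction was close to the 57.8% of genes at the members' levels. Dhx15, which takes spent spliceosomes apart and also works on pre-ribosomes, had 6672, 7292 and 7133 normalized counts with FeM CM, against 10728, 10183 and 9634 with C CM. It was the member of this role with the largest change, and its groups did not overlap (log2 fold change -0.53, SE 0.05, limma adjusted p 4.19e-05). Ddx46, which remodels the U2 snRNP at the branch site, had 6750.2, 6750.1 and 7337 normalized counts with FeM CM and 8904, 9163 and 9171 with C CM. Ddx23, which helps swap U1 for U6 at the 5′ splice site, had 4649, 4603 and 4522 normalized counts with FeM CM and 5605, 5967 and 5800.3 with C CM. Both were lower in every FeM CM library, by -0.39 (SE 0.04, limma adjusted p 9.38e-05) for Ddx46 and -0.33 (SE 0.04, limma adjusted p 1.39e-04) for Ddx23 on the log2 scale. Dhx16, which activates the assembled spliceosome, was called lower at -0.28.

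Dhx8, which releases the spliced mRNA, was the member of this role called higher, with 3707, 3388 and 3587 normalized counts with FeM CM and 3092, 3253 and 3266 with C CM. The groups were separate but close (log2 fold change 0.15, SE 0.05, limma adjusted p 0.0332), and the call was lost in 9 of 15 alternative settings, over which the adjusted p ranged between 0.00728 and 0.110. Dhx38, which drives the second step of splicing, Ddx41, Ddx42 and Dhx35 had log2 fold changes between -0.05 and 0.12 and did not pass. The helicases of successive splicing steps thus included called falls, the unstable rise of Dhx8 and values that did not pass. No test compared these helicases with each other.

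All 4 export helicases were measured and 3 fell. Ddx39, also known as URH49, had 3891, 3783 and 3967 normalized counts with FeM CM, against 6516, 6567 and 6961 with C CM. Ddx39b, also known as UAP56, the helicase of the TREX export complex and its close copy, had 10031, 9694 and 9517 normalized counts with FeM CM and 12509, 12879.9 and 12784 with C CM. Both were lower in every FeM CM library, and the fall was larger for Ddx39 (log2 fold change -0.78, SE 0.04, limma adjusted p 1.19e-06) than for Ddx39b (-0.38, SE 0.03, limma adjusted p 2.16e-05). Ddx19a, which remodels mRNPs on the cytoplasmic face of the nuclear pore, had 3095, 3076 and 3067 normalized counts with FeM CM and 3379, 3592 and 3599.6 with C CM (log2 fold change -0.19, SE 0.04, limma adjusted p 0.00594). Its neighbour and close copy Ddx19b did not pass, at 0.16 (SE 0.07, limma adjusted p 0.116). Reads from such close copies may be split uncertainly, and the same holds for Ddx3x and its Y-linked copy.

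Ratios between close relatives within a library do not depend on how the library was scaled, and 4 pairs were compared. The log2 ratio of Ddx21 to Ddx50 was 2.47, 2.40 and 2.42 with FeM CM, against 2.94, 2.98 and 3.05 with C CM, a difference of -0.56. For Ddx39 over Ddx39b it was -1.37, -1.36 and -1.26 with FeM CM, against -0.94, -0.97 and -0.88 with C CM, a difference of -0.40. In both pairs the balance moved toward the second gene in every FeM CM library. The log2 ratio of Ddx19a to Ddx19b was 0.27, 0.24 and 0.30 with FeM CM and 0.47, 0.82 and 0.58 with C CM, a difference of -0.35. For Ddx5 over Ddx17 it was 1.05, 1.08 and 1.17 with FeM CM and 1.26, 1.24 and 1.24 with C CM, a difference of -0.15. No pair had overlapping groups, and each gave an exact two-sided permutation p of 0.1, also after adjustment over the 4 pairs, which is the smallest that 3 libraries against 3 allow. Ddx21 and Ddx50 are direct neighbours on one strand, as are Ddx19a and Ddx19b.

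**Figure D3:**
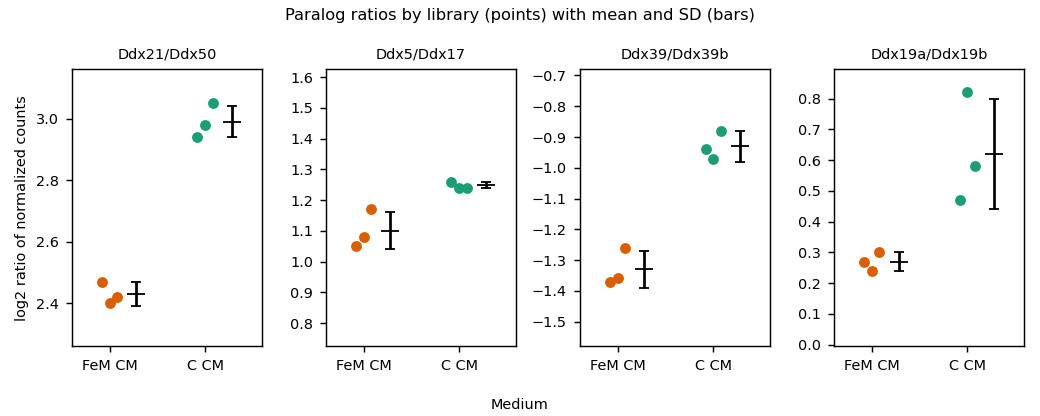
Log2 ratio of normalized counts of 4 pairs of related helicase genes in each library (points; FeM CM left, C CM right; the bars beside them show mean and SD, n = 3), with axes of equal span but different position. The ratio was lower in every FeM CM library than in any C CM library in all 4 pairs, most of all for Ddx21/Ddx50, at a mean of 2.43 with FeM CM and 2.99 with C CM.

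Of 5 helicases of translation and mRNA turnover, 2 fell and 1 rose. Ddx3x, which helps ribosomes scan structured leaders, had 15386, 16668 and 17022 normalized counts with FeM CM, against 20585, 19949 and 20371 with C CM. All FeM CM values were below the lowest C CM value (log2 fold change -0.31, SE 0.04, limma adjusted p 2.95e-04). Dhx34, which acts in nonsense-mediated decay, had 1413, 1517 and 1377 normalized counts with FeM CM and 2126, 2198 and 2259 with C CM, also apart (log2 fold change -0.61, SE 0.06, limma adjusted p 4.12e-05). Dhx36, which resolves G-quadruplexes in RNA and DNA, had 3488, 4202 and 4177 normalized counts with FeM CM, against 3166, 3066 and 3204 with C CM. It was higher in 3 of 3 FeM CM libraries, though the first of them stood nearer to the C CM values (log2 fold change 0.33, SE 0.07, limma adjusted p 0.00653).

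Ddx6, a core protein of P-bodies that links translational repression to decapping, rested on 1 library. It had 7499.9, 12909.8 and 11997 normalized counts with FeM CM, against 12779, 12521 and 13529 with C CM. The first FeM CM library was far below the other two, and the groups overlapped. The change of -0.30 on the log2 scale (SE 0.23, limma adjusted p 0.379) was -0.06 without that library. Dhx29, which helps the scanning ribosome, did not pass at -0.04.

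In the group of transcription, RNA processing and RNP assembly, 3 of 5 fell and 1 rose. Dhx9, or RNA helicase A, which unwinds long duplexes and R-loops and serves as a transcriptional coactivator, had 8221, 8849.7 and 9180.4 normalized counts with FeM CM, against 15289.7, 14893 and 15473 with C CM. The highest FeM CM library was well below the lowest C CM library (log2 fold change -0.80, SE 0.04, limma adjusted p 1.51e-06). Ddx20, or Gemin3, a subunit of the SMN complex that builds spliceosomal snRNPs, had 2286, 2596 and 2539.6 normalized counts with FeM CM and 3467, 3393 and 3325 with C CM (log2 fold change -0.46, SE 0.06, limma adjusted p 2.19e-04). Ddx1, a subunit of the tRNA ligase complex, had 6670.5, 6524 and 6860.1 normalized counts with FeM CM and 8698, 8288 and 8763 with C CM (log2 fold change -0.36, SE 0.04, limma adjusted p 7.64e-05). All 3 were lower in every FeM CM library.

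The related coregulators Ddx5 and Ddx17 did not follow them. Ddx17 had 15242, 15538 and 15299.6 normalized counts with FeM CM, against 13241, 13339 and 13505 with C CM, and was higher in every FeM CM library (log2 fold change 0.20, SE 0.03, limma adjusted p 3.78e-04). Ddx5 had 31505, 32879 and 34322 normalized counts with FeM CM and 31813, 31496 and 31999 with C CM. Its groups overlapped, and its log2 fold change of 0.05 did not pass (SE 0.03, limma adjusted p 0.278).

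Ddx60, an interferon-inducible helicase that promotes antiviral signalling, had the largest fall of any helicase. It had 715, 652 and 731 normalized counts with FeM CM, against 1549, 1552 and 1539.9 with C CM. Each FeM CM library had less than 0.5 times the level of each C CM library (log2 fold change -1.15, SE 0.07, limma adjusted p 2.22e-06). Its promoter is the one shown above with 2 copies of that interferon-response core. The RNA sensors outside the symbol rule were lower as well: Dhx58 at -0.69, Ifih1 at -0.58 and Ddx58 at -0.54 on the log2 scale, with limma adjusted p of 2.16e-06, 6.59e-06 and 3.92e-05. Dhx58os had 0, 15.3 and 11.1 normalized counts with FeM CM and 19.6, 25.2 and 19.6 with C CM. It was not called (log2 fold change -1.94, SE 1.03, limma adjusted p 0.175). Because the strand setting of the counting is not given, its reads in exons shared with Dhx58 cannot be told apart from those of Dhx58.

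Ddx11, a DNA helicase of sister chromatid cohesion that carries a DEAD-box family symbol, had 1206, 1144 and 1191 normalized counts with FeM CM, against 2394, 2353 and 2379.9 with C CM. The spread within each group was small beside the gap (log2 fold change -1.01, SE 0.05, limma adjusted p 8.53e-07). Ddx11 and Ddx60 were the 2 members among the 1699 genes of the authors' deposited table of FPKM values. There Ddx11 had 3.75, 3.56 and 3.64 FPKM with FeM CM and 7.55, 7.42 and 7.44 with C CM. Ddx60 had 1.70, 1.55 and 1.71 FPKM with FeM CM and 3.73, 3.73 and 3.68 with C CM in the authors' deposited table. That table comes from the same 6 libraries and, by its name, holds genes that the authors had selected as significant, so its values are no independent check.

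Ddx43, known in human as the cancer-testis antigen HAGE, had 360.5, 452 and 477 normalized counts with FeM CM, against 692, 664 and 654 with C CM, without overlap (log2 fold change -0.65, SE 0.11, limma adjusted p 0.00170). The testis helicase Ddx25 was below the filter, at 13.8, 5.12 and 0 normalized counts with FeM CM and 8.81, 7.57 and 0 with C CM. The other germline helicases Ddx4 and Ddx53 were not analysed here.

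Both mitochondrial helicases shared exons with a gene on the other strand. Ddx28, which helps assemble the mitochondrial ribosome, had 1948, 1769 and 1939 normalized counts with FeM CM, against 1600.3, 1446 and 1678 with C CM. Its groups did not overlap (log2 fold change 0.26, SE 0.07, limma adjusted p 0.0169), but the call was lost when any of 3 libraries was left out (C CM replicate 2, FeM CM replicate 1 or FeM CM replicate 3), with adjusted p between 0.00538 and 0.0551 over 15 settings. Dus2, which overlaps Ddx28, was also higher with FeM CM (log2 fold change 0.81, SE 0.05, limma adjusted p 4.66e-06). Reads in the exons that the pair share cannot be told apart. Dhx30, a helicase of mitochondrial RNA granules, had 3624, 3558 and 3539.7 normalized counts with FeM CM and 3111, 4268 and 4087 with C CM. The first C CM library lay below all FeM CM values and the other two above them, and the groups overlapped. The change of -0.08 on the log2 scale (SE 0.12, limma adjusted p 0.629) was -0.22 without that library, where it passed the test at an adjusted p of 0.00671, the lowest of a range up to 0.988 over 15 alternative settings. The gene overlapping Dhx30, Smarcc1, was called lower at -0.50.

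The remaining helicases are less well characterised. Dhx40 had 1782, 1814 and 1868 normalized counts with FeM CM and 2130.1, 2076 and 2085 with C CM, lower in every FeM CM library (log2 fold change -0.20, SE 0.05, limma adjusted p 0.00782). Dhx57 had 1329, 1344 and 1293 normalized counts with FeM CM and 1115, 1213 and 1154 with C CM, higher in every FeM CM library (log2 fold change 0.19, SE 0.06, limma adjusted p 0.0319). The Dhx57 call was lost in 7 of 15 alternative settings, with adjusted p between 0.0114 and 0.105 over all of them. Dhx32 at 0.23 (SE 0.09, limma adjusted p 0.0645) and Ddx59 at -0.09 (SE 0.09, limma adjusted p 0.492) did not pass.

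Partner proteins of the helicases were split in direction: of 40 tested, 15 were called lower (37.5%) and 7 higher (17.5%). Their median log2 fold change was -0.14. Of genes at the members' levels, 33.4% were called lower and 24.4% higher, and of all genes tested 22.8% and 19.7%. The 4 lower partners with the smallest p belong to helicases described above. Alyref, which Ddx39b loads onto mRNA, averaged 2649 ± 84.0 normalized counts with FeM CM and 4924 ± 194 with C CM (SD, n = 3 each; log2 fold change -0.89, SE 0.05, limma adjusted p 1.14e-06). Gemin4, which binds Ddx20 in the SMN complex, averaged 1206 ± 136 with FeM CM and 2065 ± 44.2 with C CM (log2 fold change -0.78, SE 0.08, limma adjusted p 9.38e-05). Gle1, the activator of Ddx19 at the nuclear pore, and Cnot1, the MIF4G scaffold that activates Ddx6, were lower by -0.57 and -0.53 on the log2 scale. On the higher side, the G-patch proteins Gpatch2, Rbm5, Sugp1 and Gpkow had log2 fold changes of 0.36, 0.27, 0.24 and 0.17. Other G-patch proteins were called lower: Rbm10 at -0.34 (limma adjusted p 7.18e-04), Cmtr1 at -0.29 (0.00445) and Son at -0.17 (0.0305), the last of which lost its call in 5 of 15 alternative settings, with adjusted p between 0.00602 and 0.108. Tfip11, Nkrf, Pinx1, Zgpat and Rbm17 were not called. Sugp1, Gpatch2 and Cmtr1 are partners of Dhx15 and Gpkow is one of Dhx16, and G-patch proteins thus had no common direction. Rbm10, Cmtr1, Son and the uncalled ones were named after their values were seen.

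Of 19 RNA helicases outside the symbol rule that were tested, 13 fell and 6 were not called. Among the falls, Skiv2l at -0.13 lost its call in 9 of 15 alternative settings, Supv3l1 at -0.23 in 7 and Ascc3 at -0.16 in 1. The others that fell kept their call in every setting. These fragile falls were named after their values were seen. The 68.4% called lower stand beside 33.4% of genes at the members' levels. The median log2 fold change of these 19 was -0.24. By limma 0 were called higher, as by limma-voom, and 0 were higher at an unadjusted p under 0.05. Mov10, an interferon-inducible helicase that restricts retroelements, averaged 5228 ± 173 normalized counts with FeM CM and 10531 ± 259 with C CM (SD, n = 3 each; log2 fold change -1.01, SE 0.04, limma adjusted p 1.94e-07). Helz2, which was more abundant, averaged 16406 ± 167 with FeM CM and 17021 ± 639 with C CM. It was not called (log2 fold change -0.05, SE 0.03, limma adjusted p 0.254). Helz2 was named after its values were seen. Zgrf1, a helicase of DNA repair, Skiv2l2, the helicase of the nuclear exosome, and Eif4a3, the DEAD-box core of the exon junction complex, fell by 0.62, 0.49 and 0.36 on the log2 scale.

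**Figure D4:**
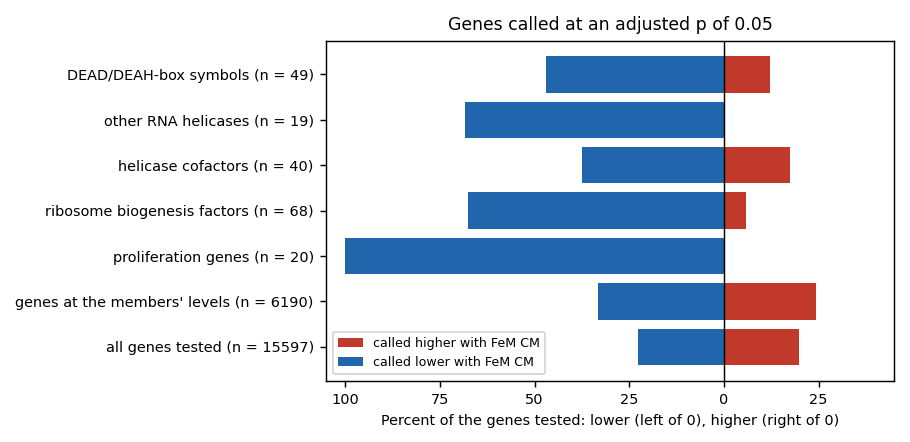
Percent of the genes tested that were called lower (blue, left of 0) or higher (red, right of 0) with FeM CM at a limma adjusted p of 0.05, for the helicase symbols, 4 other gene lists, the 6190 genes at the members' levels and all 15597 genes tested. The helicases had 46.9% lower and 12.2% higher, against 33.4% and 24.4% for genes at the same levels.

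Some markers of cell types that a microglia culture may also hold were called between the groups. Beside the counts below, 22.8% of all genes tested were called lower and 19.7% higher. Among genes at the members' levels these shares were 33.4% and 24.4%. The microglia markers Cx3cr1 and Olfml3 did not pass the test, at log2 fold changes of -0.57 (SE 0.34, limma adjusted p 0.233) and 0.68 (SE 0.49, limma adjusted p 0.307). Of 10 macrophage-lineage markers 4 were lower and 3 higher, with summed levels of 175466 to 178315 normalized counts with FeM CM and 200013 to 204649.5 with C CM. Of 4 astrocyte markers tested 2 were higher and 1 lower, and the list summed to 4182 to 4367 with FeM CM and 3362 to 3652 with C CM, mostly from Aldoc and Gja1, while Gfap averaged 28.1 ± 4.86 with FeM CM and 28.4 ± 4.52 with C CM (SD, n = 3 each), and Slc1a2 was at 0 in 5 libraries. Of 5 oligodendrocyte markers tested 1 was higher and 3 lower, and the list summed to 6146 to 6359 with FeM CM and 8826 to 9386 with C CM, mostly from Mbp and Cnp, and Sox10 was below the filter. Of 2 neuron markers tested 1 was higher, and the list summed to 1208 to 1336 with FeM CM and 716 to 792 with C CM, nearly all from Syn1. The part of these cell types in the helicase values was not tested.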

How the data were processed

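RNA of 6 libraries was sequenced after mRNA-seq library preparation, per the labels' protocols. The submitters' processing notes name, with no role or order, HISAT2 2.1.0, fastp 0.17.1, R 3.4.3 and DESeq2 1.18.1. For the build, annotation, read counter and strand setting, the labels' protocols name none.

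The authors deposited a log2 table of 26096 genes, whose values are log2(count divided by a size factor, plus 1): undoing it gave whole reads for 100.0% of values within 0.01. A shorter deposited table of 1699 genes holds the authors' FPKM values. The authors' fold-change and p-value columns in both tables were not used. Depth was 39624311 to 50557794 reads in genes, and the chi-square per degree of freedom between replicates (16.3 to 22.8) showed no duplicated library.

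limma 3.58.1 (R 4.3.3; trend and robust, two-sided) was fitted to the log2 values of genes reaching 10 normalized counts in 3 or more libraries, with Benjamini-Hochberg adjustment over 15597 genes. Paralog ratios had an exact permutation test. The fit was tested on simulated data. Exon lengths and overlaps came from GENCODE mouse release 21, which held 99.8% of gene IDs, and promoters from RefSeq, matched by symbol. Members, roles and lists were chosen with earlier results of these data known. Every member could be named. Values in each library were given for the called members with the largest change, those with the smallest p per role and the most abundant of each role; of other lists, up to 4 called genes in each direction by smallest p. Alternatives covered filters, pseudocounts, scaling, a moderation without trend, limma-voom on the recovered reads, a replicate block and leaving out each library. One cell type marker is not reported here.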

Additional observations from a re-analysis of the deposited data

How the results depend on the processing

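Across 15 alternative settings, 708 of 735 values of single members kept their direction and call, 19 lost the call, 8 gained it and 0 changed sign while called. Of 29 called helicases, 26 kept the call in each of these settings; the exceptions were Dhx8, Dhx57 and Ddx28. The count of members called lower was 23 to 24 and that of members called higher 4 to 9. The difference between the groups in each of the 4 paralog ratios kept its sign in the settings run for it (2 pseudocounts and each library left out): -0.58 to -0.53 for Ddx21/Ddx50, -0.43 to -0.37 for Ddx39/Ddx39b, -0.43 to -0.25 for Ddx19a/Ddx19b and -0.19 to -0.13 for Ddx5/Ddx17. The median log2 fold change of the members was -0.14 with a minimum of 1 normalized count, without a filter or with quantile normalization, and -0.20 to -0.11 with a library left out, where -0.11 belongs to the fit without FeM CM replicate 1. In the main fit the middle member was Ddx19a at -0.19 and the next was Ddx59 at -0.09, a gap that a small change of rank can cross. With a minimum of 1 normalized count or without a filter, 50 rather than 49 members were tested, so the median lay between these neighbouring values. The cause of the shift in the other settings was not tested. Calls in small groups moved by 1 or 2 genes. With quantile normalization, 2 ribosome biogenesis helicases, 1 export helicase and 2 less characterised helicases were called higher. Without trend and robust moderation, 0 splicing helicases and 4 partner proteins were called higher. Without a filter, and with scaling by library totals, 0 splicing helicases and 0 less characterised helicases were called higher.

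With a library left out, the helicases called higher numbered 1 to 2 in ribosome biogenesis, 0 to 1 in splicing, 1 to 2 in transcription and RNA processing, 0 to 1 in mitochondria and 0 to 1 among the less characterised ones, and 0 to 1 mitochondrial helicases were called lower. The non-helicase ribosome biogenesis factors called higher numbered 2 to 6, and 0 to 1 astrocyte markers were called lower.

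Replicate numbers did not pair the libraries: the deviations of same-numbered libraries correlated at 0.00859, -0.0196 and -0.0393. With a replicate block, 5 members were called higher and 23 lower, and 0 splicing helicases were called higher.

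Limits: 3 libraries a group, of unstated independence, set the precision of small changes such as those of Dhx8 and Dhx57. The differences stand beside a large change in proliferation genes. With strand counting unstated, reads in exon stretches that Ddx28, Dhx30, Dhx32, Ddx49 and Dhx57 share with overlapping genes cannot be told apart. The length of these stretches was not measured.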
